A study of Mus musculus with 4 samples.

Results

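Genes that encode chaperones and folding helpers of the endoplasmic reticulum were followed in quadriceps, a thigh muscle, of mice with and without the vitamin D receptor. They are Sdf2l1, Hspa5, Hsp90b1, Dnajb11, Pdia4, Pdia6, Creld2, Manf, Calr and Hyou1, 10 of the 55573 gene IDs in the count files, and each symbol matched 1 gene ID. Sdf2l1 was selected on its measured fall in the knockout, so its difference is given as a description and no test of it is used as support. The other 9 were chosen by function, though with earlier results of these data known. All 10 passed the filter on low counts, with at least 20 counts in every library.

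The study holds 4 libraries from mice aged 7 weeks, 2 per group. The WT libraries are from the strain C57BL/6J. The vdr-/- libraries are from B6.129S4-Vdrtm1Mbd/J, known as a germline knockout, so that the receptor is disrupted in every tissue and not in muscle alone. Mice of both groups were weaned at day 21 onto regular chow and water. The labels do not say that the libraries numbered 1 and 2 came from separate animals, so p-values reflect only how much these libraries vary, and that variation may be technical. Total counts were 10789025 to 21336982 per library, of which mitochondrially encoded genes and Rn7sk took 48.2% to 51.2%. The 11 skeletal muscle fibre markers, among them Acta1, Myh4 and Ckm, summed to 86955 to 98765 CPM per library.

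The groups also differed in sex by their sex-linked genes. Xist stood at 183 and 217 CPM (counts scaled to a common library size by the TMM method) in WT and at 0 and 0.256 CPM in vdr-/-. Counts of 4 Y-linked genes together were 95 and 1 in WT and 2965 and 1383 in vdr-/-. The strain given above differed between the groups as well. Genotype, strain and sex therefore cannot be told apart in any difference below. Vdr gave 5 and 0 counts for WT, against 5 and 1 for vdr-/-, too few to check the labels.

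The endoplasmic reticulum is where secreted and membrane proteins fold, and in muscle fibres it is continuous with the sarcoplasmic reticulum that stores calcium. Hspa5 (BiP) binds unfolded chains and also restrains the stress sensors IRE1, PERK and ATF6. When unfolded chains accumulate, BiP leaves the sensors, and ATF6 and the transcription factor XBP1 switch on chaperone genes. This is the unfolded protein response. Many of its target promoters carry an endoplasmic reticulum stress response element, in which the factor NF-Y holds a CCAAT box and ATF6 or XBP1 holds CCACG at a fixed distance. This element was defined in earlier work on promoters of this very gene family, so its presence here is a property of the genes and no result about vitamin D.

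The promoters are shown first because the element is what the rule for choosing these genes did not use. RefSeq windows on GRCm38.p6, from 250 bases before to 50 bases after the annotated start, were found for 8 of the 10 members; Manf and Hyou1 were not matched. Element I was searched as CCAAT, then any 9 bases, then CCACG, and element II as ATTGG, then any 1 base, then CCACG, each on both strands. Element I was found in 5 of the 8 members (62.5%) and in 37 of 27025 genes with a window (0.137%). The following stretches show each match in capitals with 20 bases on either side, read 5′ to 3′ on the gene's own strand, so that a match on the opposite strand begins with CGTGG.
Hspa5 (chr2:34772005-34772063, plus strand): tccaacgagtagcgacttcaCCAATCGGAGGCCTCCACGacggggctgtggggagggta
Hsp90b1 (chr10:86705618-86705676, minus strand): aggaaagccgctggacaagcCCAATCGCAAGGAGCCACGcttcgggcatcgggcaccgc
Hsp90b1 (chr10:86705513-86705571, minus strand): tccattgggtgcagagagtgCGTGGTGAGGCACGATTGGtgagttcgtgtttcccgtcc
Pdia6 (chr12:17266471-17266529, plus strand): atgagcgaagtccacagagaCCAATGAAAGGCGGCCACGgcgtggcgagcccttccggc
Creld2 (chr15:88819500-88819558, plus strand): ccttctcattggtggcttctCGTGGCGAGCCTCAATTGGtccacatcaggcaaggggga
Calr (chr8:84847055-84847113, minus strand): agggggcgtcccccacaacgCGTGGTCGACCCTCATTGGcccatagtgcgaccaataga
Measured from the RefSeq start of each window, the match in Hspa5 lay closest, 65 to 47 bases before it. The farther of the matches in Hsp90b1 lay 212 to 194 bases before its RefSeq start. The gene coordinates given further below come from another annotation, GENCODE, and can start elsewhere. By them the Hspa5 match (34772025 to 34772043) lies inside the gene, which begins at 34771970, so the order of distances depends on the annotation. Hsp90b1 was the only member with 2 matches.

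Dnajb11 held element II, which 12 of the 27025 genes (0.044%) held. The match lies 8 to 18 bases after the annotated start and is shown in capitals with 8 bases on either side.
Dnajb11 (chr16:22857844-22857870, plus strand): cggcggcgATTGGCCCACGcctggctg
Sdf2l1 and Pdia4 held neither element in their windows, which says only that these letters were not there. Sdf2l1 did hold both parts of the element at other spacings. Before its start, CCACG occurred 3 times and CCAAT 3 times, all but 1 CCAAT on the opposite strand. Its 250 bases before the start are shown because it differed most between the groups, with these parts in capitals.
Sdf2l1 (chr16:17132384-17132633, minus strand): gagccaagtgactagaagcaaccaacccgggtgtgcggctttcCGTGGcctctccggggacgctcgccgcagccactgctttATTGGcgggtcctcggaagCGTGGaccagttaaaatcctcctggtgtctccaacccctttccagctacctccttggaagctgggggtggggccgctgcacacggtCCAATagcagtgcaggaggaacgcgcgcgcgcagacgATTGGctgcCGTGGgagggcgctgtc
CCAAT was in all 8 member windows and in 41.1% of all genes, and CCACG in all 8 and in 35.5%.

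**Figure D1:**
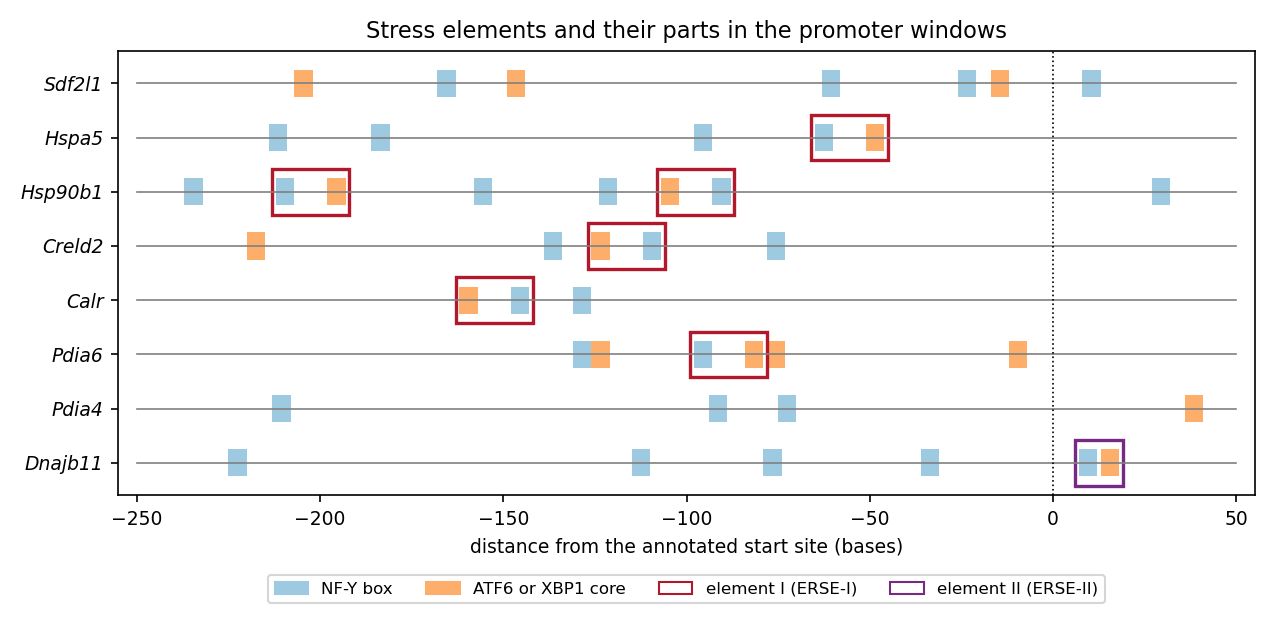
Stress elements and their parts in the promoter windows of 8 members, where the x axis is the distance in bases from the annotated start (dotted line), blue blocks are the NF-Y box, orange blocks the ATF6 or XBP1 core on either strand, and open boxes mark element I (red) and element II (purple). Element I is boxed in Hspa5, Hsp90b1, Creld2, Calr and Pdia6, element II in Dnajb11, and neither in Sdf2l1 or Pdia4.

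In vdr-/- muscle Sdf2l1 was at 33.7% of its WT level, while Pdia4, Pdia6, Calr and Dnajb11 had fitted log2 fold changes of 0.04 to 0.15. Hspa5, Hsp90b1 and Manf lay between, at 75.9%, 80.3% and 68.2% of WT, and did not pass the test. Among the 9 members other than Sdf2l1, edgeR's quasi-likelihood test called 0 at an adjusted p below 0.05, where 0.413% of the 13076 genes tested were called lower and 1.61% higher. DESeq2 also called 0 of the 9. At an unadjusted p below 0.05, 3 of the 9 were lower and 0 higher, where 5.90% of all tested genes were lower and 8.08% higher. The median log2 fold change (vdr-/- over WT) of these 9 was -0.16, and -0.21 with Sdf2l1, against -0.0007 over all tested genes. Without WT replicate 2 the medians were -0.013 for the 9 and -0.029 for the 10, and without WT replicate 1 they were -0.26 and -0.31. Both vdr-/- libraries lay below both WT libraries for 5 members (Sdf2l1, Hspa5, Hsp90b1, Manf and Hyou1), which was so for 21.7% of all tested genes. Sdf2l1 is among the 5 because of how it was picked, and nothing is read from that count.

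Sdf2l1 encodes a lumenal protein that pairs with the J-domain chaperone Dnajb11 and assists BiP. The gene (ENSMUSG00000022769, chromosome 16, 17130138 to 17132383, GRCm38) has 1 annotated transcript and shares no exon base with another gene. Its counts were 47 (WT replicate 1), 79 (WT replicate 2), 39 (vdr-/- replicate 1) and 20 (vdr-/- replicate 2). They correspond to 4.45 and 6.16 CPM in WT against 1.85 and 1.71 CPM in vdr-/-, so the groups did not overlap, and the WT libraries differed from each other by more than the vdr-/- libraries did. The means were 5.31 ± 1.21 and 1.78 ± 0.105 CPM (SD, n = 2), with a log2 fold change of -1.57 ± 0.28 (SE). A lower log2 fold change was found in 0.314% of the tested genes, a low rank that follows from how the gene was picked. Its log2 fold change was -1.77 without WT replicate 1, the WT library with Y-linked counts. It was -1.31 without WT replicate 2, -1.65 without vdr-/- replicate 1 and -1.52 without vdr-/- replicate 2.

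Its paralogue Sdf2 and its partner Dnajb11 give a scale for this difference. Sdf2, a constitutive relative, stood at 32.4 and 28.9 CPM in WT against 30.4 and 30.8 CPM in vdr-/- (log2 fold change -0.001 ± 0.13). Per kilobase of exon, Sdf2l1 was at 18.8% and 29.2% of the Sdf2 level in the WT libraries and at 8.3% and 7.6% in the vdr-/- libraries. Dnajb11 (ENSMUSG00000004460, chr16:22857845-22879634) stood at 21.7 and 24.03 CPM in WT against 25.5 and 23.5 CPM in vdr-/-, with overlapping groups (0.10 ± 0.14, adjusted p = 0.822). Sdf2l1 per kilobase was at 59.9% and 74.9% of Dnajb11 in WT and at 21.3% and 21.2% in vdr-/-.

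Of the ATP-driven chaperones of the lumen, Hspa5 and Hsp90b1 had both vdr-/- libraries below both WT libraries by a margin that did not pass the test, and for Hyou1 the groups nearly met. Hspa5 (ENSMUSG00000026864, chr2:34771970-34777547), whose element I lay nearest to the RefSeq start among the stretches above, stood at 142 and 152 CPM in WT against 119 and 104 CPM in vdr-/-. The groups did not overlap (146.9 ± 7.36 against 111.4 ± 10.1 CPM; log2 fold change -0.40 ± 0.13, adjusted p = 0.170). Hsp90b1 (ENSMUSG00000020048, chr10:86690209-86705509), the lumenal member of the Hsp90 family, stood at 82.0 and 87.8 CPM in WT against 71.5 and 64.7 CPM in vdr-/-. Its groups did not overlap either (-0.32 ± 0.12, adjusted p = 0.271), and 217 of its 4032 exon bases are shared with other annotated genes on the same strand and 415 on the opposite strand. Hyou1 (ENSMUSG00000032115, chr9:44379490-44392369), a large Hsp70-like protein that exchanges nucleotide on BiP, stood at 28.1 and 32.9 CPM in WT against 27.996 and 26.6 CPM in vdr-/-. Its vdr-/- replicate 1 lay just below its WT replicate 1 (-0.16 ± 0.14, adjusted p = 0.675).

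Calr and the disulfide isomerases had log2 fold changes of 0.04 to 0.15. Against Calr, per kilobase, Hspa5 was at 84.6% and 83.3% in WT and at 62.6% and 60.3% in vdr-/-, and Hsp90b1 at 51.3% and 50.4% in WT and at 39.6% and 39.2% in vdr-/-. These ratios were not tested. Calr, Hspa5 and Hsp90b1 shared the order of libraries within each group, so the ratios varied less between libraries than the levels of Hspa5 and Hsp90b1 did. Calr (ENSMUSG00000003814, chr8:84841850-84846934), calreticulin, binds calcium and monoglucosylated glycoproteins, and stood at 114 and 124 CPM in WT against 129 and 118 CPM in vdr-/- (0.05 ± 0.12, adjusted p = 0.913). Pdia6 (ENSMUSG00000020571, chr12:17266545-17284770), which also quiets the stress sensors, stood at 37.4 and 43.2 CPM in WT against 41.9 and 40.8 CPM in vdr-/- (0.04 ± 0.13, adjusted p = 0.942). For both genes the groups overlapped, and for both the sign of the log2 fold change turned when a library was left out. Without WT replicate 1 it was -0.0076 for Calr and -0.058 for Pdia6, and without vdr-/- replicate 1 it was -0.021 for Calr. Pdia4 (ENSMUSG00000025823, chr6:47796141-47813430), an isomerase found with BiP, stood at 19.1 and 20.9 CPM in WT against 23.3 and 21.1 CPM in vdr-/- (0.15 ± 0.14, adjusted p = 0.706), the only member with both vdr-/- libraries above both WT libraries.

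The secreted stress-responsive members were among the least abundant. Manf (ENSMUSG00000032575, chr9:106838312-106891979), a neurotrophic factor that is held in the lumen with BiP, stood at 12.2 and 16.1 CPM in WT against 10.9 and 8.27 CPM in vdr-/-. The groups did not overlap (-0.55 ± 0.20, adjusted p = 0.229), and the log2 fold change ranged from -0.78 to -0.34 when 1 library was left out. Its relative Cdnf stood at 29.3 and 18.5 CPM in WT against 21.1 and 21.9 CPM in vdr-/-, with overlapping groups. Of the 3524 exon bases of Manf, 312 are shared with genes on the opposite strand, and the stated library kit does not mark strand. Creld2 (ENSMUSG00000023272, chr15:88819646-88826683), a small calcium-binding protein with isomerase activity, had 46 to 108 counts per library, at 4.64 and 6.32 CPM in WT against 5.13 and 3.92 CPM in vdr-/-. Its groups overlapped (-0.26 ± 0.25, adjusted p = 0.719). Creld2 is the only member on the chromosome of Vdr, 9.03 Mb from it. Its paralogue Creld1 stood at 18.8 and 18.3 CPM in WT against 15.02 and 17.7 CPM in vdr-/- (-0.19 ± 0.15, adjusted p = 0.645).

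**Figure D2:**
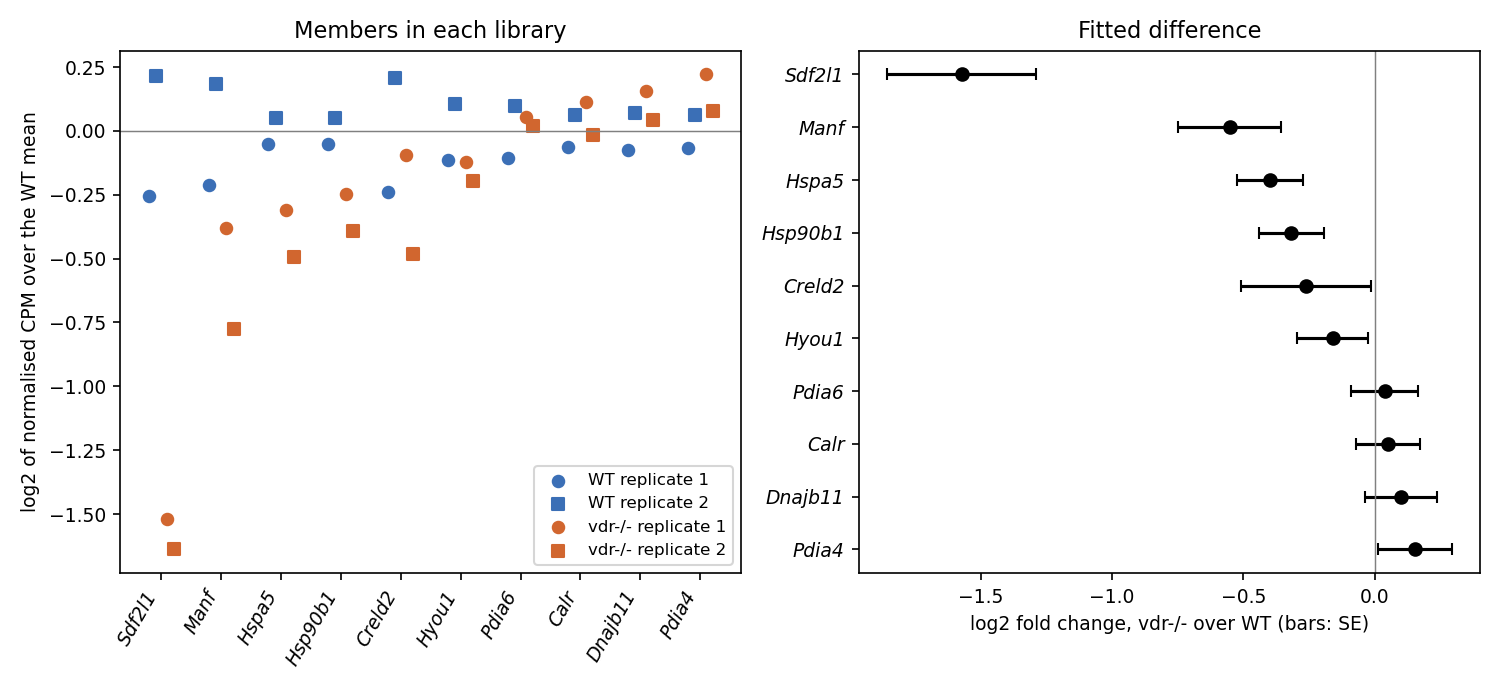
The left panel plots each member's normalised CPM in each of the 4 libraries as log2 over the WT mean (blue WT, orange vdr-/-, circles replicate 1, squares replicate 2), and the right panel the fitted log2 fold change with its SE. Sdf2l1 stands apart at -1.57, Manf, Hspa5 and Hsp90b1 follow between -0.55 and -0.32, and the 4 members at the right lie near 0.

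The members shared an order of libraries within each group, which the selection by genotype did not use. In all 10, WT replicate 2 was above WT replicate 1, and in all 10 vdr-/- replicate 1 was above vdr-/- replicate 2. Over all tested genes, 49.9% had the first order, 50.1% the second and 24.8% both. The step within WT was 0.10 to 0.43 on the log2 scale (median 0.17; pseudocount 0.5) and that within vdr-/- 0.036 to 0.38 (median 0.13). No pathway or cell type list fixed for this work had all of its tested members in both orders. Of 15 other disulfide isomerases and oxidases 6 had both, of 17 translocon and signal peptide genes 7, and of 18 cytosolic heat shock genes 2. The lists with the highest shares after the members were plasma cell markers (3 of 5), fat cell markers (5 of 10) and endothelial markers (3 of 6). The order was noticed after the values were seen, the members are not independent of each other, and no test was made of it. The members' summed level thus ran 465 and 514 CPM in WT against 456 and 413 CPM in vdr-/-, so that WT replicate 1 and vdr-/- replicate 1 differed by less than the 2 libraries of either group did.

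Compared per kilobase of merged exons, the members' levels spanned an order of magnitude. Calr was highest at 41.4 ± 2.51 CPM per kilobase in WT and 42.8 ± 2.73 in vdr-/-, followed by Hspa5 (34.7 ± 1.74 and 26.4 ± 2.39) and Hsp90b1 (21.1 ± 1.02 and 16.9 ± 1.19). Their means over the 4 libraries exceeded those of 96.3%, 95.2% and 92.6% of the tested genes. Pdia6 (10.8 ± 1.08 in WT), Pdia4 (8.35 ± 0.522) and Dnajb11 (7.07 ± 0.510) came next. In WT the remaining 4, Sdf2l1 (4.79 ± 1.09), Hyou1 (4.22 ± 0.460), Manf (4.02 ± 0.772) and Creld2 (4.01 ± 0.868), did not differ beyond the spread of their libraries. In vdr-/- Sdf2l1 was the lowest of the 10 at 1.61 ± 0.0947, below Manf at 2.72 ± 0.524. With the longest transcript as length, Pdia6 moved by the largest ratio, from 10.9 to 18.8 over the 4 libraries, Pdia4 and Dnajb11 exchanged places, and Manf (5.28) passed Creld2 (3.66).

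**Figure D3:**
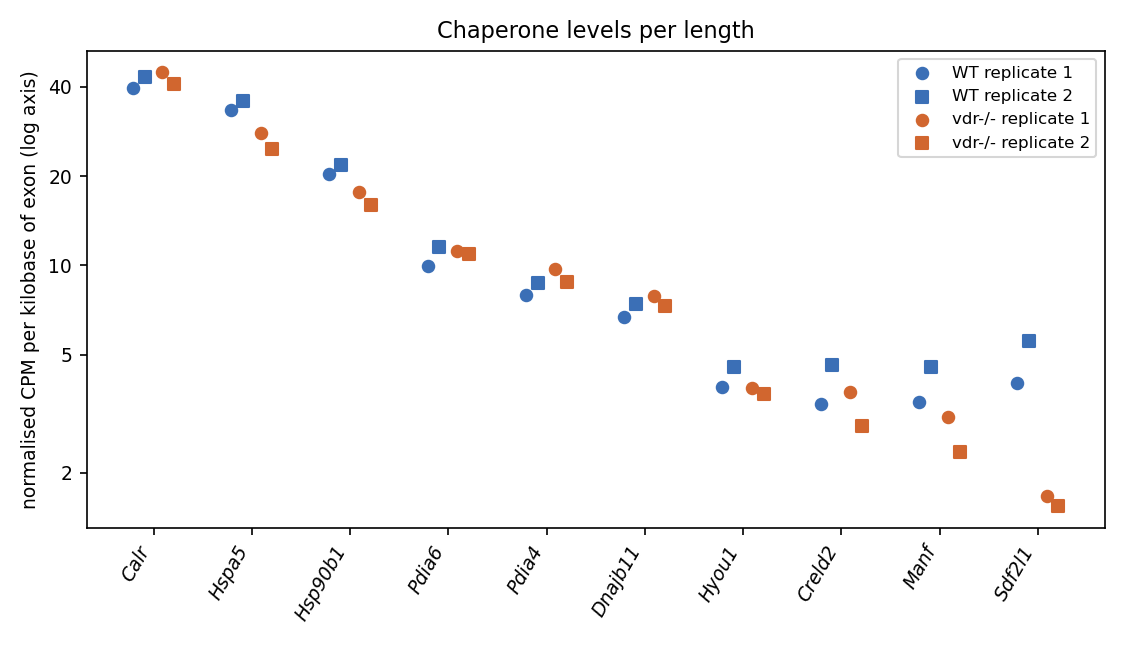
Normalised CPM per kilobase of merged exons, on a log axis, for the 10 members in each library, ordered by the mean over the 4 libraries. Calr, Hspa5 and Hsp90b1 lie between 16.1 and 44.8 in every library, and the Sdf2l1 points of vdr-/- are the lowest at 1.67 and 1.54.

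Genes of the wider pathway were called about as often as all tested genes. Of 151 tested genes in 11 lists, edgeR called 2 higher (1.32%, against 1.61% of all tested genes) and 0 lower (against 0.413%). At an unadjusted p below 0.05, 9 were lower (5.96%, against 5.90%) and 11 higher (7.28%, against 8.08%), and the median log2 fold change was -0.013. DESeq2 called 3 higher and 1 lower. In 42 genes (27.8%, against 21.7% of all tested genes) both vdr-/- libraries lay below both WT libraries. The sensors and transcription factors held no called gene among 11 (median 0.01). Atf6 stood at 22.8 and 25.2 CPM in WT against 30.3 and 27.8 CPM in vdr-/- (0.27 ± 0.13, adjusted p = 0.411), and Creb3l2, another membrane-bound transcription factor, had a log2 fold change of -0.28 ± 0.16. Xbp1, counted over both its spliced and unspliced forms, stood at 46.1 and 44.5 CPM in WT against 49.5 and 40.2 CPM in vdr-/-. Gene counts do not show its splicing by IRE1.

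Targets of the PERK branch and of the wider amino acid stress response held both calls. Of the 13 genes tested 2 were called higher and none lower, where 1.61% and 0.413% of all tested genes were. The log2 fold change was positive in 8 and negative in 5 (median 0.25). Phgdh, the first enzyme of serine synthesis, rose from 6.10 ± 1.02 to 14.9 ± 0.702 CPM (1.29 ± 0.18, adjusted p = 0.00511), and Psat1, the next enzyme of that route, from 4.33 ± 1.16 to 11.8 ± 2.87 CPM (1.44 ± 0.25, adjusted p = 0.0144). Psat1 was not called without vdr-/- replicate 1. Asns, asparagine synthetase, was not called by edgeR (3.51 and 4.68 CPM in WT, 16.4 and 6.91 CPM in vdr-/-; adjusted p = 0.258) and was called by DESeq2 (adjusted p = 0.0131). Chac1, a glutathione-degrading enzyme, ran the other way (-0.65 ± 0.19, adjusted p = 0.129), and was called without vdr-/- replicate 1 (-0.97). Ddit3, the stress factor CHOP of the list above, stood at 4.74 and 3.59 CPM in WT against 3.66 and 3.07 CPM in vdr-/-.

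The other lumenal folding lists held no called gene, where 2.03% of all tested genes were called in either direction, so at these list sizes 0 calls is near the background. Among 8 J-domain and nucleotide exchange cofactors the median was -0.09, with Sil1, an exchange factor of BiP, at 0.28 ± 0.17 and Dnajc3, a J-domain cofactor, at -0.15 ± 0.15. Among 15 other disulfide isomerases and oxidases the median was -0.06, with the oxidase Ero1a at 0.54 ± 0.22 and the peroxiredoxin Prdx4 at 0.46 ± 0.20. Among 7 lectin chaperone and glycan genes the median was 0.10, with Prkcsh, a subunit of glucosidase II, at 0.30 ± 0.16 and Uggt1, the folding sensor of glycoproteins, at -0.19 ± 0.13. Among 18 other lumenal chaperones the median was 0.01. Serpinh1, the collagen chaperone, stood at 185 and 220.1 CPM in WT against 127 and 155 CPM in vdr-/- (-0.52 ± 0.15, adjusted p = 0.121), and was the gene that DESeq2 called lower (adjusted p = 0.0281). Sdf4, a calcium-binding protein, was at 0.35 ± 0.12 in the same list.

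Quality control, export and the calcium store held no called gene either, which is again near that share. Of 21 degradation genes none was called (median -0.10). Os9, a lectin that delivers misfolded glycoproteins, stood at 21.2 and 21.1 CPM in WT against 31.3 and 29.1 CPM in vdr-/- (0.51 ± 0.13, adjusted p = 0.088), and Vcp, the extracting ATPase, was at -0.36 ± 0.13. Of 17 translocon and signal peptide genes none was called (median -0.04), with Ssr2, a subunit of the translocon-associated complex, at 0.47 ± 0.17 and Sec61a1, the channel, at 0.38 ± 0.14. Ssr2 was called without WT replicate 2 (0.75). KDEL receptors and vesicle coat genes held no call among 22 (median 0.03), with the coat genes Sec23a at -0.33 ± 0.12 and Sec24a at -0.31 ± 0.14. The oligosaccharyltransferase held none among 9 (median 0.11), with Rpn2 at 0.27 ± 0.12 and Stt3b at 0.23 ± 0.12. The calcium store of the sarcoplasmic reticulum held none among 10 (median -0.19), with Jph1, which ties the store to the surface membrane, at -0.31 ± 0.12 and Hrc, a calcium-binding protein of the store, at -0.24 ± 0.14.

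Genes with element I in their promoter window were a further description, as the element is read from sequence and not from counts. Of the 37, 16 were tested, 5 of them members, whose values enter the median. None of the 16 was called in either direction, where 2.03% of all tested genes were, and their median log2 fold change was -0.15. The 11 that are not members had the same median, -0.15. Of the 16, 10 had a negative log2 fold change, where 50.1% of all tested genes did. Besides the members, 4 genes of the pathway lists held it (Canx, Dnajc3, Ero1b and Syvn1), with log2 fold changes of -0.15, -0.15, -0.57 and -0.16. The tested genes outside the members and the pathway lists ran both ways, from Spats2l at -0.46 to Acacb at 0.49 and Adcy3 at 0.76.

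Cytosolic heat shock genes differed more than the lumenal members. Of 18 tested, 7 were called lower and none higher, all 18 had a negative log2 fold change, and the median was -0.75. Over all tested genes 0.413% were called lower and 50.1% had a negative log2 fold change. Hsp90aa1, the inducible cytosolic paralogue of Hsp90b1, stood at 169.7 and 118 CPM in WT against 45.2 and 35.0 CPM in vdr-/-. Hspa8, the constitutive cytosolic relative of Hspa5, stood at 784 and 868 CPM in WT against 648 and 573 CPM in vdr-/- (-0.44 ± 0.14, adjusted p = 0.162). Hsp90ab1, the constitutive form, stood at 728 and 597 CPM in WT against 421 and 405 CPM in vdr-/-. Hsph1, Hspb1 and Hspa4l fell by 1.70, 1.31 and 1.40 on the log2 scale. The lowest log2 fold changes of the list were those of Hspa1b (-4.02 ± 0.89, adjusted p = 0.298) and Hspa1a (-3.31 ± 0.97, adjusted p = 0.399), near-identical copies whose counts can be split between them and which were not called. A heat shock element (GAA, TTC and GAA or TTC, GAA and TTC, each 2 bases apart, both strands) was in 3 of 13 heat shock windows, in 0 of the 8 member windows and in 0.662% of all genes. In the heat shock list WT replicate 2 was above WT replicate 1 in 3 of 18 genes, against 10 of 10 members. The heat shock list was chosen with earlier results of these data known, so its counts beside those of all tested genes are a description. Both lists come from the same 4 libraries, and the difference between them was not tested.

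**Figure D4:**
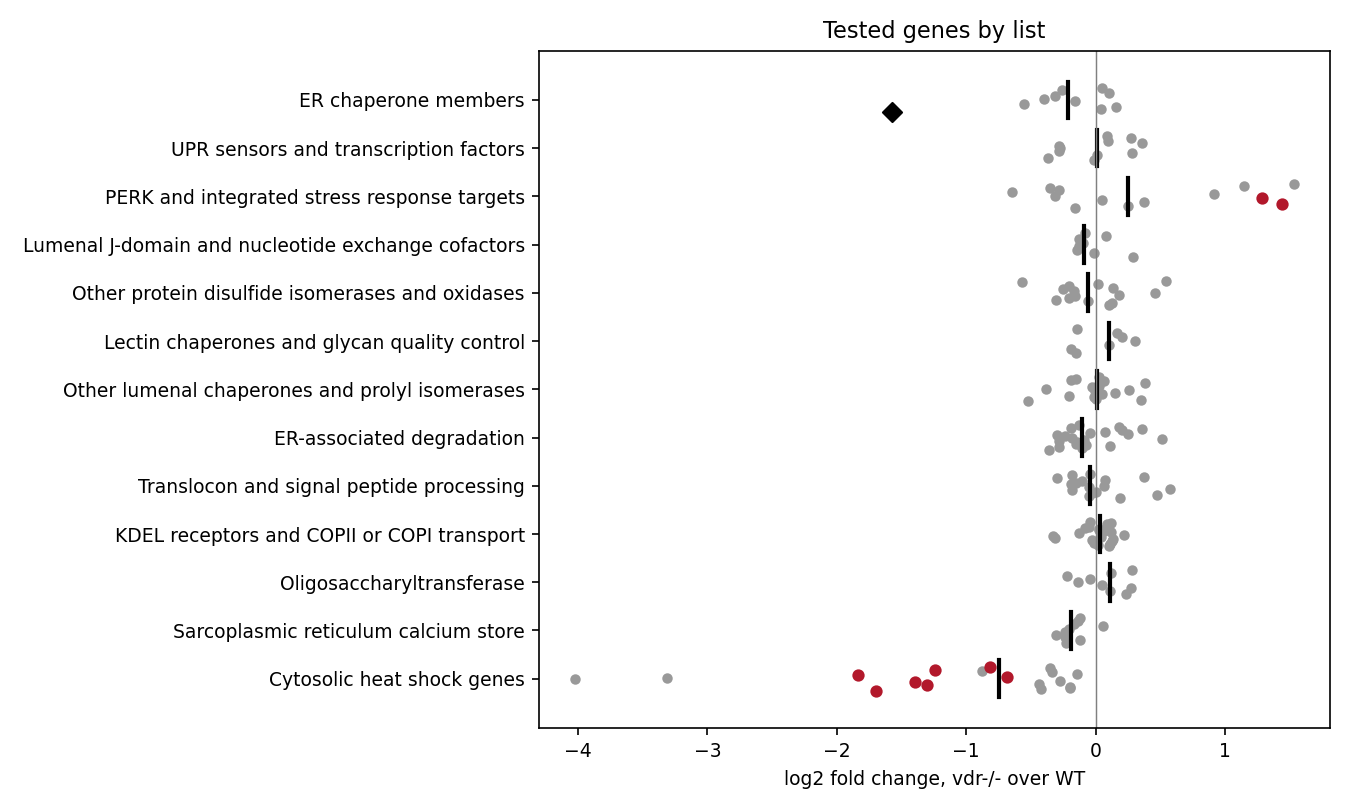
Log2 fold changes (x axis, vdr-/- over WT) of the tested genes of each list, grey where not called, red where called by edgeR at an adjusted p below 0.05, with the median of the list as a bar and Sdf2l1 as a black diamond. The medians of the member and pathway lists lie between -0.21 and 0.25, and that of the cytosolic heat shock genes at -0.75.

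The 5 genes most like Sdf2l1 over the 4 libraries were found by the Euclidean distance between log2 CPM values, each gene centred on its own mean. The search covered 8769 tested genes outside the members with a mean of at least 5 CPM. They were Mfap4, a microfibril protein (distance 0.20), Hspa4l, a cytosolic chaperone (0.28), Ccn3, a matricellular protein (0.33), the noncoding RNA H19 (0.38) and the cell cycle inhibitor Cdkn1c (0.39). Mfap4 stood at 21.3 and 27.1 CPM in WT against 10.3 and 8.27 CPM in vdr-/-. With 4 libraries, any gene lower in both vdr-/- libraries by a like amount is near. The members were left out of the search, so only lumenal chaperones outside them could have appeared, and none was among the 5.

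Markers of cell types other than fibres moved with the groups for some types. The shares over all tested genes were 1.61% called higher, 0.413% called lower and 50.1% with a negative log2 fold change. Fat cell markers were called higher in 8 of 10 (summed level 2275 and 2447 CPM in WT, 6485 and 5649 CPM in vdr-/-). Tendon markers were negative in 8 of 8 with none called (592 and 476 CPM in WT, 471 and 323 CPM in vdr-/-). Plasma cell markers, from cells rich in these chaperones, were positive in 4 of the 5 tested and negative in 1 (median log2 fold change 1.88). Of these 5, 2 were called higher (Igkc and Igha). Mzb1 and Derl3 of the same list had at most 4 counts in any library. Fibroblast markers summed to 5394 and 5757 CPM in WT against 5694 and 5672 CPM in vdr-/-, with 4 of 8 negative. Macrophage markers were positive in 8 of 8 (220.2 and 256 CPM in WT, 271 and 292 CPM in vdr-/-) and endothelial markers in 2 of 6, with none called in either. The part of these cells in the members' values was not tested, and in bulk tissue fewer cells of a type and less RNA per cell cannot be told apart.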

How the data were processed

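RNA-seq gene counts from 4 mouse quadriceps libraries were used. Each deposited file lists Ensembl gene IDs with an integer count of reads and no normalization. The authors' tools were Trimmomatic, STAR and DESeq2 on GRCm38 (mm10), per the submitters' processing notes, with versions, annotation release and strand setting not given in the sources used here. The library kit, per the labels' protocols, was TruSeq v2, which does not mark strand. Of 55573 gene IDs, 55480 matched GENCODE M21 (GRCm38), which gave symbols, places and exon lengths.

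Genes were kept by filterByExpr of edgeR 4.0.16 (minimum count 10, minimum total 15), which left 13076. Counts were scaled by TMM and tested by quasi-likelihood in edgeR (robust, current method, genotype as the only term) in R 4.3.3, with Benjamini-Hochberg adjustment over all tested genes and calls at an adjusted p below 0.05. SEs were derived from the F statistic. The script was tested on simulated data. Replicates varied beyond sampling error (chi-square per degree of freedom 8.04 within WT and 12.5 within vdr-/-), so none was a repeat deposit. Alternatives were DESeq2 1.42.0, another scaling, other filters, a replicate block and each library left out. Promoters were read from RefSeq windows.

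The members and gene lists were chosen with earlier results of these data known. Named genes are all members, their direct paralogues, up to 4 called genes per list or else the 2 with the smallest p, and the 5 nearest to Sdf2l1. Asns, Chac1, Xbp1, Ddit3, Hspa1a, Hspa1b and the element I genes were named after their values were seen, because an alternative called them or as background.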

Additional observations from a re-analysis of the deposited data

How the results depend on the processing

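Sdf2l1 had the lowest count of any member in a single library (20). Of the 9 other members, 0 were called under each of the 12 alternatives. The number of members called was therefore that of Sdf2l1 alone, which was picked for its fall in these libraries, so its 1 call, or its 0 to 1 with 1 library left out (0 without WT replicate 2 or either vdr-/- library), says nothing about stability. The median log2 fold change of the other 9 was lowest without WT replicate 1 (-0.26) and closest to 0 without WT replicate 2 (-0.013). Of the other pathway genes, DESeq2 called 1 lower and the test with no low-count filter 1 (Serpinh1 in both). Leaving out 1 library gave 0 to 1 lower and 1 to 4 higher. With 1 library left out Calr ran from -0.021 to 0.12 (-0.0076 without WT replicate 1) and Pdia6 from -0.058 to 0.14, and the other 8 members kept their sign under all 12. Deviations of same-numbered libraries from their group means had a correlation of 0.039 over the tested genes. This value cannot exclude a pairing that touches only some genes. With the replicate block 1 member was called, Sdf2l1 at -1.53, and 3 pathway genes were called higher (Ddit4 added). Removing X-linked and Y-linked genes and using edgeR's older quasi-likelihood method were added after the data were seen. The cause of these changes was not tested.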
